A study of Eptesicus fuscus and Canis lupus familiaris and Equus caballus with 4 samples.

Results

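The list described here holds the 252 hairpin candidates that the study's authors deposited for adult dog testis, out of 1453 candidates in the 3 lists of the series. All rows of the dog list were taken, with no selection by reads or score. The series also covers testis of the horse and of the big brown bat, and its title places the question with putative bat miRNAs and DNA transposons. The dog sample was snap-frozen adult testis, from which TRIzol total RNA was made and its small RNA fraction sequenced as single-end reads of 50 bases. The labels give no breed, genotype or treatment, and do not say how many dogs the tissue came from. There was 1 dog library, so no value below has a replicate error, and each interval is an exact Clopper-Pearson 95% interval for counting error alone, as if candidates were independent of each other.

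A miRNA gene is transcribed as a longer RNA that folds back into a hairpin. Drosha and then Dicer cut the hairpin into a short duplex, and as a rule 1 strand of the duplex is loaded into an Argonaute protein and kept, while the other is degraded. Reads at a true miRNA therefore pile up on an arm of the hairpin, often with a few reads on the opposite arm, and bases 2 to 8 from the 5′ end, the seed, pair with target mRNAs. In testis, miRNAs come from germ cells and from the Sertoli, Leydig, peritubular, vascular and blood cells around them, and germ cells also carry many piRNAs, a longer class of small RNA that often begins with U.

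The sequences that carry most of the support are shown here to let a reader see them beside their values. They are well supported autosomal, unplaced and chromosome X candidates, Candidate_357 and Candidate_340 being the other arms of Candidate_353 and Candidate_318, then 4 taken for their low model score, tandem or scattered copies, or low diversity. Letters are DNA letters as deposited, 5′ to 3′, and capitals mark bases 2 to 8 of the listed sequence.
Candidate_165: tCCTGTACtgagctgccccgagct
Candidate_49: cCCAGTGTtcagactacctgttcag
Candidate_248: cCCAGTGTttagactatctgttcag
Candidate_215: tCCCTGTCctccaggagctcact
Candidate_353: tAACGAGTacctttctggattgagt
Candidate_357: tATCCAGAaaggcgctcgttatg
Candidate_354: tAATTGGCgcccctctgggtagg
Candidate_318: tAATTAGGacctccctgagcggagt
Candidate_340: tGCTGAGGaaggtgctcattgcatt
Candidate_334: tAGTGACTgcaagcctgagtagag
Candidate_38: tGGACAGTcattgtatagaggatgg
Candidate_112: tCGTCGCTgaggcaggaccgacttc
Candidate_24: tCTGAAGCtttagcaggccccgagg
Candidate_252: tCCCAGGAcatgagtgtaggacaca

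Known miRNAs among these were recognised by reading the sequences, from general knowledge of mature miRNAs and after the values were seen. In this way 26 candidates were read as miRNAs and 3 as pieces of tRNA, and 1 was the reverse complement of a miRNA. A candidate without a name here is not thereby unknown. Positions are on CanFam3.1, and without a dog gene annotation the loci could not be placed in exons, introns or UTRs.

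Support was concentrated in few candidates. The 252 candidates summed to 63429 reads, of which 61652 (97.2%) belonged to the 46 candidates with 100 reads or more. A further 52 candidates had 10 to 99 reads, 66 had 2 to 9 and 88 rested on a single read. With 10 reads or more called strong support, 98 candidates were strong (38.9%, 32.8 to 45.2). Of these 98, 38 shared their mature sequence with another candidate, and in all 24 sets of identical mature sequences every member carried the same number of reads and of distinct reads. Reads of such sets are thus counted once per copy in the sums.

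Autosomes held most candidates and most reads, but the reads came from 1 locus. The 184 autosomal candidates lay on 36 autosomes and summed to 42819 reads, and Candidate_165 alone gave 37280 of them (87.1%). It lies on chromosome 16, 23958924 to 23959066 on the minus strand, and its sequence is that of miR-486-5p, a miRNA known for high levels in red blood cells and muscle. The deposited fraction of all reads in the authors' analysis was 0.073 for this candidate, the highest in the list. Autosomes held 67.5% of listed reads with it and 21.2% without it. Strong support was most frequent on chromosome X: 57 of 184 autosomal candidates (31.0%, 24.4 to 38.2) were strong, against 26 of 36 on chromosome X (72.2%, 54.8 to 85.8) and 15 of 32 on unplaced scaffolds (46.9%, 29.1 to 65.3). On unplaced scaffolds other than Un_JH373668 it was 7 of 24 (29.2%). The autosomal and chromosome X intervals did not overlap, the unplaced interval overlapped both, and no test was run, since the candidates come from 1 library and copies share reads. Of the 36 chromosome X candidates, 17 lay in a stretch of 14092 bases and 6 in another of 13092 bases. Among the 26 strong ones, 15 shared their mature sequence with another candidate. The chromosome X share thus rests largely on these stretches and was not recounted without them. The median was 2 reads on autosomes, 134 on chromosome X and 5.5 on unplaced scaffolds. With identical sequences counted once within each placement, a setting added after the values were seen, these medians were 2 (169 sequences), 47 (28) and 12 (23).

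The next autosomal loci were the miR-199 genes, miRNAs known from smooth muscle and connective tissue cells. Candidate_237 on chromosome 7, 26812735 to 26812859, and Candidate_49 on chromosome 20, 50410893 to 50411017, listed the same miR-199a-5p sequence with 984 reads and 23 distinct reads each. Candidate_248 on chromosome 9, 55262313 to 55262457, has the sequence of miR-199b-5p and had 545 reads from 12 distinct reads. All 3 share the seed CCAGTGT, were predicted by 5 models and lay on the 5′ arm. Other markers of stroma in the fixed list, miR-143, miR-145 and the mature arms of miR-214, were not read in the dog list. Of the blood markers only miR-486 was read, and miR-451, miR-144, miR-142 and miR-223 were not. No name from the fixed germ-line list (the miR-34b/c and miR-449 group, the miR-17 group and the miR-506 family among them) was read either, nor any from the endothelial, skeletal muscle, liver, neural or epithelial lists. The sources do not say whether known miRNAs were taken out before prediction. Names were also read from general knowledge, and most candidates on chromosome X and all on Un_JH373668 were not assigned to a family. A missing name therefore does not show a missing miRNA, and this holds for the miR-506 family too.

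The remaining autosomal loci of the top 10 were mostly without a name. Candidate_215 on chromosome 6, 15853500 to 15853600, has the sequence of miR-339-5p and had 264 reads. Candidate_38 on chromosome 20, 43603630 to 43603744, had 230 reads from 14 distinct reads, and Candidate_161 on chromosome 16, 1275336 to 1275468, had 180 reads from 11, and neither was read as a known miRNA. The last places went to a tandem stretch on chromosome 11, where Candidate_112, Candidate_113, Candidate_114 and Candidate_116 repeat 1 mature sequence between 14017075 and 14017827 on the minus strand. Each listed the same 155 reads. Their mature starts lay 351, 216 and 81 bases apart, and Candidate_112 and Candidate_116 overlapped enough to be merged to 1 locus.

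Smaller autosomal miRNAs spanned 2 to 72 reads. Let-7, a family linked to differentiation, had let-7d-5p at Candidate_262 with 72 reads, let-7d-3p at Candidate_261 with 27 and let-7g-5p at Candidate_43 with 19. Candidate_126 (miR-151-5p) had 70 reads, Candidate_298 (miR-146a-5p, a regulator of inflammatory signalling) had 64, Candidate_299 (miR-1296-5p) had 33 and Candidate_181 (miR-1343-3p) had 26. Candidate_230 (miR-186-5p) had 11 and Candidate_118 (miR-30a-5p) had 10. The miR-29c-5p sequence was listed at 2 places on chromosome 7, Candidate_233 and Candidate_234, with the same 10 reads and the same hairpin. MiR-99a-5p had 3 reads, listed both on chromosome 31 at Candidate_23 and on chromosome 5 at Candidate_208. Candidate_244 (miR-889-3p) with 31 reads and Candidate_240 (miR-1185-3p) with 2 lay within 9847 bases of chromosome 8 together with Candidate_245, which had 9 reads. Both named miRNAs belong to the large imprinted miRNA cluster beside MEG3. In all, 22 of the 26 candidates read as miRNAs were strong, and 18 of the 57 strong autosomal candidates were given a miRNA name. Naming without a miRNA table was not complete, so these counts can miss known miRNAs.

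Unplaced support was nearly all from 1 scaffold. Of the 9319 reads on 20 unplaced scaffolds, 8883 (95.3%) lay on Un_JH373668, in 8 candidates at 6 loci between 949 and 23788, all on the plus strand. All 8 were strong and all had 5 models. Candidate_353 at 12966 to 13100 led with 5968 reads from 46 distinct reads, and Candidate_357 on the other arm of the same hairpin had 985 from 40. Candidate_354 had 540 reads, Candidate_358 had 477 and Candidate_359 had 365, while Candidate_355, Candidate_360 and Candidate_356 had 294, 144 and 110. On the other scaffolds 7 of 24 candidates were strong, and the highest count there was 100.

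Part of this scaffold repeats hairpins placed on chromosome X. Of its 8 mature sequences, 4 were also listed on chromosome X with identical counts. The hairpin of Candidate_355 equals that of Candidate_337 over all 83 bases, and that of Candidate_359 equals that of Candidate_315 over all 91. Candidate_358 differs from Candidate_304 at 1 of 121 bases. Candidate_360 shares its mature sequence with 3 chromosome X candidates but differs from them at 8 of 113, 15 of 123 and 9 of 143 bases, compared without gaps around the mature sequence. The best supported pair, Candidate_353 and Candidate_357, had no copy with the same mature sequence elsewhere in the list. Over all unplaced scaffolds, 20 of 32 candidates had an identical mature sequence on a placed chromosome and 12 an identical hairpin.

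Of the 7 strong unplaced candidates off that scaffold, 5 were repeats of autosomal ones. Candidate_24, Candidate_194 and Candidate_366, each on a scaffold of its own, carried the same 100 reads as Candidate_152, Candidate_153 and Candidate_159 on chromosome 16, and the 6 hairpins came in 2 versions. Candidate_191 and Candidate_192 shared 30 reads with Candidate_239 on chromosome 7. Candidate_367 with 30 reads and Candidate_341 with 12 had no such copy. Among the fainter ones, Candidate_190 and 6 other loci, 4 of the 7 unplaced, all rested on the same single read.

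On chromosome X the most supported loci were 4 copies of 1 mature sequence. Candidate_318, Candidate_327, Candidate_332 and Candidate_338 each listed 1546 reads from 27 distinct reads, and Candidate_334 followed with 1030 from 56. Candidate_328, with the sequence of miR-424-5p, had 182 reads, Candidate_314, closest to miR-1468-5p, had 124, and Candidate_326 and Candidate_325, closest to the arms of miR-2114, had 47 and 18. The densest stretch, 14092 bases from 114675824, held 10 loci and 17 candidates. Its members were not assigned to a named family here.

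Arm use was even in the list as a whole. Hairpins overlapping on the same strand were merged, which left 232 loci, and the arm was taken from the side of the hairpin on which the mature sequence lies. Of the 214 loci with a single arm listed, 108 used the 5′ arm (50.5%, 43.6 to 57.4) and 106 the 3′ arm. With strong support the 5′ arm was listed at 42 of 71 such loci (59.2%, 46.8 to 70.7), and below it at 66 of 143 (46.2%, 37.8 to 54.7), with overlapping intervals. Strong autosomal loci used the 5′ arm in 35 of 52 cases (67.3%, 52.9 to 79.7), or 29 of 45 with each identical sequence once (64.4%, 48.8 to 78.1). Strong single-arm loci on chromosome X and unplaced scaffolds used it in 7 of 19 (36.8%, 16.3 to 61.6). By reads the 5′ arm carried 72.7% of the list, and Candidate_165 alone was 58.8% of the list.

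Both arms were listed at 18 loci, which held 54586 reads, 86.1% of the list. Candidate_165 alone gave 37280 of these reads, with 5 on its other arm. The 18 loci were 15 of the 86 strong loci and 3 of the rest. Of the 18, 11 lay on chromosome X, 5 on autosomes and 2 on Un_JH373668, and 32 of their 36 candidates had 5 models. The 3′ arm had more reads at 8 of the 11 loci on chromosome X and at both on the scaffold, but at 1 of the 5 on autosomes. Copies share reads here too: with each pair of arm sequences once, the 3′ arm led in 8 of 15 pairs.

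**Figure D1:**
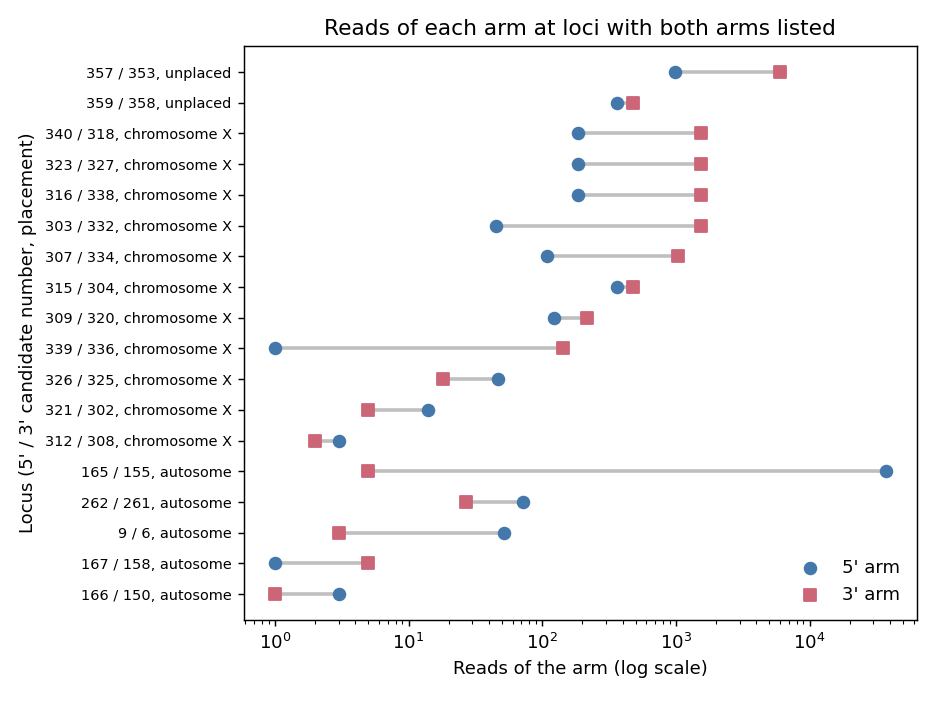
Reads of the 5′ arm (circles) and the 3′ arm (squares) at the 18 loci with both arms listed, on a log axis, 1 locus per line with its candidate numbers and placement. The miR-486 locus (165 / 155) has the widest gap, 37280 against 5 reads as listed on its own strand. The 3′ arm leads at 8 of the 11 chromosome X loci.

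The dominance of the stronger arm varied widely between loci. At the miR-486 locus the 5′ arm had 37280 reads and the 3′ arm, Candidate_155, had 5, a ratio of 7456. That ratio leaves out the 12 reads of Candidate_144, listed on the opposite strand with a sequence that contains that of Candidate_155. The median ratio over the 18 loci was 5.53. The most even strong locus was that of Candidate_315 and Candidate_304, with 365 and 477 reads (ratio 1.31), and its scaffold copy has the same counts. Candidate_357 and Candidate_353 stood at 985 and 5968 (6.06), Candidate_307 and Candidate_334 at 109 and 1030 (9.45), Candidate_309 and Candidate_320 at 122 and 218 (1.79), and let-7d at 72 and 27 (2.67).

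Copies of a locus can differ in 1 arm only. The 3′ arm of Candidate_318 (1546 reads) is paired with the 5′ sequence of Candidate_340 (186 reads), and the same pair of sequences recurs at 2 other loci. At the fourth copy, Candidate_332, the 5′ arm is a different sequence, Candidate_303 with 45 reads, although the 3′ sequence and its 1546 reads are the same. The ratio was 34.4 at that locus and 8.31 at the others, over the same 3′ reads. The 186 reads of the 5′ sequence are likewise listed in full at each of 3 loci, while the 45 reads of Candidate_303 belong to 1. These ratios therefore do not compare the arm use of single loci. The listed arm sequences lay 10 to 30 bases apart, with a median of 12.

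At 5 of the loci there were more distinct sequences on the arm with fewer reads, which are copies of 2 of the 15 distinct pairs, those of Candidate_315 and of Candidate_340. At Candidate_315 the weaker 5′ arm had 48 distinct reads and the stronger 3′ arm had 24, so the arm with more reads was not the arm with more distinct reads. The locus on chromosome 33 was the best supported autosomal one without a miRNA name that had both arms, Candidate_9 with 52 reads and Candidate_6 with 3. Candidate_336 had 144 reads, the same reads being listed at each of 4 loci, against 1 on its other arm, Candidate_339.

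Distinct reads rose with reads, but far more slowly. A distinct read is a different read sequence at the candidate, such as a variant end or a sequencing error. Across the 252 candidates the rank correlation of reads and distinct reads was 0.93, and across the 98 strong ones 0.79 (0.78 over 73 distinct mature sequences). These describe 1 library, and copies and depth are shared among the points. Strong candidates had a median of 12.8 distinct sequences per 100 reads. The median was 30 at 10 to 19 reads, 16.7 at 20 to 99, 6.88 from 100 to under 300, 4.74 from 300 to under 1000 and 1.75 at 1000 or more, so values per 100 reads follow depth to a large extent.

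**Figure D2:**
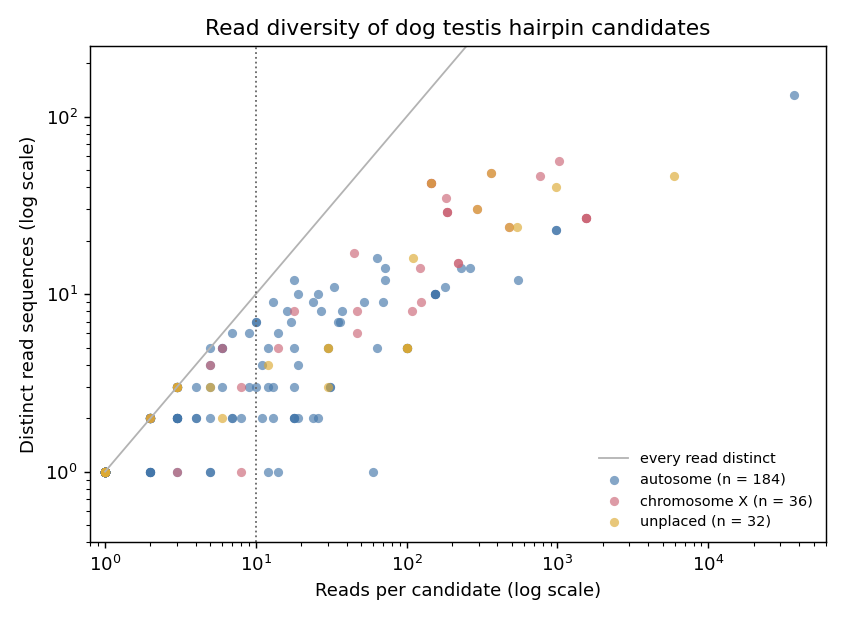
Distinct read sequences against reads for the 252 candidates, both axes log, with colour for placement, a grey line where every read would be distinct and a dotted line at 10 reads. Copies with identical counts lie on top of each other, and Candidate_252 stands out with 60 reads of a single sequence.

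At like support the spread of diversity was wide. From 100 to under 300 reads, the 5 autosomal mature sequences had 5 to 14 distinct reads (median 11), the 8 on chromosome X had 8 to 42 (median 22) and the 4 on unplaced scaffolds had 5 to 42 (median 23), some of the last shared with chromosome X. The 144 reads of Candidate_336 came from 42 sequences, while the 155 reads of Candidate_112 came from 10 and the 100 reads of Candidate_24 from 5. Among the best supported, Candidate_248 (miR-199b-5p) had 12 distinct sequences for 545 reads and Candidate_313 on chromosome X had 46 for 769.

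Ranked over all strong candidates, whose depths differ, the extremes were as follows. The lowest diversity per read was at Candidate_165, with 132 sequences for 37280 reads (0.354 per 100), then Candidate_353 (0.771), Candidate_252 (1.67), and Candidate_318 and its 3 copies (1.75 each). Candidate_252 on chromosome 9, 4378704 to 4378848, differs from the others in having a single sequence behind all 60 reads. Candidate_241 with 14 reads and Candidate_99 with 12 were the other strong candidates with a single sequence, and all 3 had 4 models. The highest diversity among strong candidates was at Candidate_233 and Candidate_234 (miR-29c-5p), with 7 sequences in 10 reads (70.0 per 100), then Candidate_182 with 9 in 13, Candidate_218 with 12 in 18 and Candidate_297 with 10 in 19.

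The model score was higher where read support was higher. The score is how many of the 5 prediction models of the program called a candidate, and it was 5 for 126 candidates and 4 for the other 126. No lower score is listed, so comparisons by score cover scores 4 and 5 alone. Whether the models themselves use reads or distinct reads was not examined, so score and support need not be independent. Strong support was found for 72 of the 126 with 5 models (57.1%, 48.0 to 65.9) and for 26 of the 126 with 4 (20.6%, 13.9 to 28.8). Median reads were 18 and 2, and median distinct reads 5 and 1. Candidates with 5 models held 97.2% of listed reads. The share with 5 models was 31 of 101 among candidates with a single distinct sequence (30.7%, 21.9 to 40.7), 30 of 68 with 2 to 4 (44.1%), 22 of 37 with 5 to 9 (59.5%) and 43 of 46 with 10 or more (93.5%, 82.1 to 98.6). Without chromosome X and Un_JH373668 the last share was 15 of 18 (83.3%, 58.6 to 96.4).

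**Figure D3:**
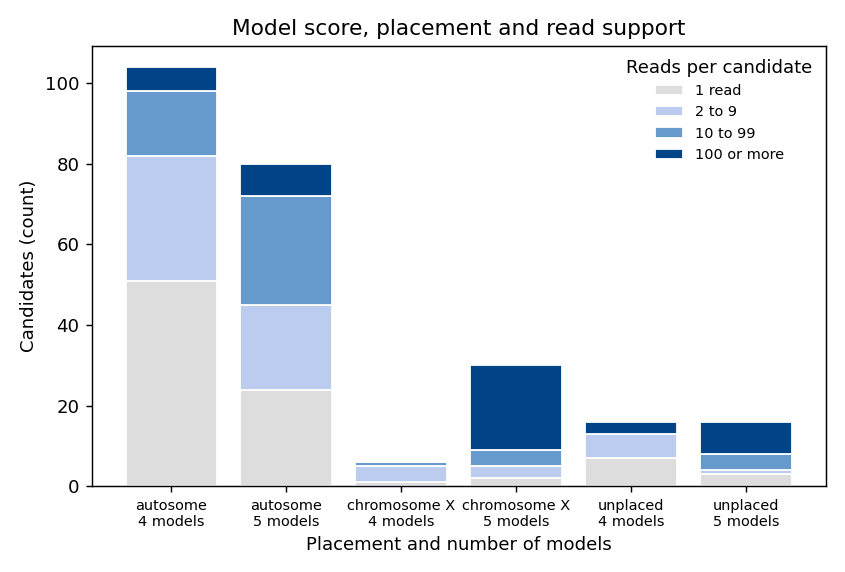
Number of candidates by placement and by model score, stacked by reads per candidate from 1 read (light) to 100 or more (dark). On chromosome X 30 of the 36 candidates have 5 models and 21 of those 30 have 100 reads or more, while 51 of the 104 autosomal candidates with 4 models rest on 1 read.

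A full score did not require many reads. Of the 126 candidates with 5 models, 29 rested on 1 read (23.0%, 16.0 to 31.4), against 59 of 126 with 4 models (46.8%, 37.9 to 55.9). On autosomes alone, strong support was found for 35 of 80 with 5 models (43.8%, 32.7 to 55.3) and 22 of 104 with 4 (21.2%, 13.8 to 30.3). The most read candidates with 5 models were Candidate_165, Candidate_353 and the 4 copies that include Candidate_318. With 4 models they were Candidate_38 with 230 reads, Candidate_161 with 180, Candidate_116 with 155, and the 6 copies that include Candidate_24 with 100 each.

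The well read candidates with 4 models had long listed sequences. Of the 26 strong ones, 22 were 25 bases long (84.6%, 65.1 to 95.6), against 28 of the 72 strong ones with 5 models (38.9%, 27.6 to 51.1). With identical sequences once these were 15 of 19 (78.9%, 54.4 to 93.9) and 19 of 54 (35.2%, 22.7 to 49.4). Known miRNAs were among them: miR-30a-5p, miR-29c-5p and let-7d-3p had 4 models, and 19 of the 26 candidates read as miRNAs had 5.

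Predicted folding energy per base, not adjusted for base composition, barely differed with score or support. The minimum free energy from RNAfold, divided by hairpin length, had a median of -0.39 kcal/mol per base with 5 models and -0.38 with 4. It was -0.39 at 1 read and -0.38 at 100 reads or more. The median share of G and C bases in the hairpin was 55.4% with 5 models and 58.1% with 4. By support it was 59.3% at 1 read and 54.1% at 100 reads or more. Whether folding differs at equal base composition was not tested. The mature sequence had a median of 82.6% paired bases with 5 models and 80.0% with 4. The hairpins themselves are windows of fixed form: in every row the length equals 15 bases plus the mature length counted on both arms plus equal outer flanks of 10 to 40 bases in steps of 5, so hairpin length (83 to 145 bases) tells of the window and not of a measured precursor end.

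Listed mature sequences ended at 25 bases, the longest length in the list. This length was found for 105 candidates (41.7%, 35.5 to 48.0), of which 79 began with T in the deposited DNA letters (75.2%), against 88 of 147 shorter ones (59.9%). It was found for 18 of 88 candidates with 1 read (20.5%), 37 of 66 with 2 to 9 (56.1%) and 50 of 98 strong ones (51.0%). Counted by diversity, it was 25 of 101 with a single distinct sequence (24.8%, 16.7 to 34.3), 42 of 68 with 2 to 4 (61.8%, 49.2 to 73.3), 17 of 37 with 5 to 9 (45.9%) and 21 of 46 with 10 or more (45.7%). The part of listed length in the model score was not tested. Several known miRNAs are listed with a base before their usual start, among them miR-30a-5p, miR-186-5p and miR-146a-5p, so a seed of a listed sequence can be shifted by a base against the usual one.

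**Figure D4:**
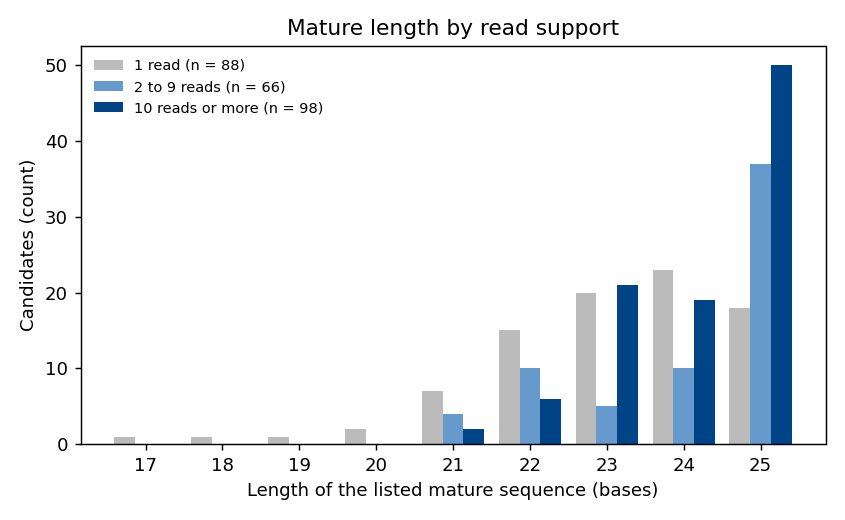
Number of candidates by length of the listed mature sequence in bases, for candidates with 1 read (grey), 2 to 9 reads (light blue) and 10 reads or more (dark blue). Lengths end at 25 bases, where 50 of the 98 strong candidates lie but only 18 of the 88 single-read ones.

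Seeds were shared by different mature sequences in 6 groups. CCAGTGT joined miR-199a-5p and miR-199b-5p. The seed GCTGAGG joined Candidate_303 with the 5′ arm of Candidate_340 on chromosome X. The largest group, GCTGTTG, held 7 mature sequences at 8 candidates on 6 autosomes, from Candidate_97 with 37 reads on chromosome 29 and Candidate_100 with 19 on chromosome 10 down to single reads. Candidate_354 on the scaffold shared AATTGGC with Candidate_132 on chromosome 15, at 540 and 6 reads. The remaining groups were CGGGGCA at the miR-486 locus and TCTTGCT, whose members had 3 reads and 1.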

How the data were processed

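Candidates were predicted by the authors with miRanalyzer, per the text file deposited with the lists. For each candidate the authors give 2 raw counts, reads and distinct reads. They also give a score, which counts how many of 5 models called it, and a fraction of the authors' total reads with 3 decimals. The genome build CanFam3.1 is named in the submitters' processing notes. Adapter trimming, mapping settings and the handling of known miRNAs are not stated. The horse and bat lists served only to count candidates.

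Positions were checked to be 1-based with the mature sequence at its stated place. Hairpins overlapping by at least 1 base on a strand were merged. Folding used RNAfold 2.7.2. Intervals came from scipy 1.17.1 and tables from pandas 2.3.3 under Python 3.11.15. Arm and merging steps were tested on simulated hairpins. With 1 library no test was run. Reads are not unique molecules. Named candidates were the most read loci per placement (10 autosomal, 10 unplaced, 5 on chromosome X), all loci with both arms, the 5 highest and lowest in diversity, the 5 most read per score, marker miRNAs and shared sequences or seeds, plus others chosen after their values were seen. Members, lists and alternatives were chosen with earlier results of these data known. The planned match to a RefSeq miRNA table was not run, as no such table of dog was used here.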

Additional observations from a re-analysis of the deposited data

How the results depend on the processing

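Of 70 alternative values for 16 results, 39 stayed inside the 95% interval of the main value (counts: within 1.5 times). For shares of reads the interval took all 63429 listed reads as independent, although copies share reads, and was narrow (67.1 to 67.9% for autosomes). Most alternatives for those shares fell outside it, so the tally depends on the interval used. With a minimum of 5, 20 or 100 reads, the strong share was 47.2%, 28.2% or 18.3% in the list, 64.3%, 44.4% or 29.4% with 5 models and 30.2%, 11.9% or 7.14% with 4. The score order was the same in each. Without chromosome X and Un_JH373668, an alternative chosen after seeing the data, the strong share was 30.8% in all and 44.3% with 5 models. At 20 and 100 reads the median was 8.33 and 6.10 distinct sequences per 100 reads. Among loci with 10 reads or more the 5′ arm share was 59.2%, and the 25-base share of strong candidates was 51.0%. Loci near another were 11.2% at 3000 bases, 23.3% at 50000 and 11.6% without chromosome X, against 16.8% at 10000. Shares of reads moved most: without Candidate_165, autosomes held 21.2%, chromosome X 43.2% and unplaced scaffolds 35.6%, against 67.5%, 17.8% and 14.7%. With identical sequences once (assigned to a placed chromosome first) these were 75.4%, 10.6% and 14.0%, and 81.6% of sequences were autosomal and 5.31% unplaced. Without Un_JH373668, also added after seeing the data, they were 78.5%, 20.7% and 0.799%. With 5 models only, chromosome X held 18.2% of reads and 23.8% of candidates, and autosomes 63.5% of candidates. The match to RefSeq miRNAs was not run. No paired analysis was possible because the dog has 1 library. A single read can show only 1 distinct sequence, which limits diversity at 88 candidates.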

Other observations

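All 3 chromosome 35 candidates with a tRNA-like sequence lay between 24891362 and 25897520. Candidate_17 (gTCAGGATggccgagtggtctaagg), the 5′ part of a leucine tRNA, had 64 reads from 5 distinct reads, Candidate_18, the 5′ part of an alanine tRNA, had 14 from 6, and Candidate_16, which holds the conserved T-arm sequence of tRNAs, had 4 from 3. RNAfold placed the mature sequence of Candidate_16 on neither arm, and it was the only candidate without an arm by folding, while Candidate_13 and Candidate_33 moved from the 3′ to the 5′ arm.

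Candidates on the strand opposite a miRNA were listed at 2 places. At the miR-486 locus, Candidate_144 on the plus strand, counted above as miR-486-3p by its sequence, had 12 reads from 5 distinct reads, and its sequence, tCGGGGCAgctcagtacaggatg, contains that of Candidate_155 on the minus strand, which had 5 reads. Reads of the bases shared by Candidate_144 and Candidate_155 match both strands, so their strand of origin cannot be told from the list. Candidate_232 on chromosome 7, 26818548 to 26818684, on the strand opposite the miR-199a gene of Candidate_237, is the reverse complement of miR-214-5p and rested on 1 read.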
